A study of Triticum aestivum with 96 samples.

Results

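Messenger RNA of bread wheat (Triticum aestivum) was measured by RNA-seq in the whole flag leaf of cultivar Mace, and 150 of the 139118 genes in the table are described here: strongly rhythmic genes whose transcripts peaked in the subjective afternoon in both leaf stages. Mature leaves came from plants at ear emergence and senescent leaves from plants whose flag leaves had visibly lost chlorophyll. Both stages grew in 1 room under 12 h of light at 20 °C and 12 h of dark at 15 °C, and at a dawn called Zeitgeber time 0 (ZT0) the room went over to continuous light at 20 °C. Leaves were taken every 2 h from ZT45 to ZT91, which gives 24 time points, and each stage and time has 2 libraries, each pooled from 2 leaves, so that there are 48 libraries per stage and 96 in all. The stages were sown 28 days apart, so stage and sowing batch cannot be told apart. The labels name no transgene, mutation or chemical treatment.

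The genes were chosen from the measured values. A gene entered when its mean scaled count (reads per gene times a factor for each library) was at least 50 in each stage, which left 20577 genes. In each stage, log2(scaled count + 2) was fitted with a straight line in time plus a 24 h wave. A fitted peak in mature leaves from 6 to under 10 h after subjective dawn left 4435 genes. A peak shift between stages of under 2 h left 2472 genes, and a peak-to-trough difference of at least 1 log2 in both stages left 249 genes. The 150 with the largest value of the smaller of their 2 peak-to-trough differences were kept. All 150 had data in every comparison below. The least rhythmic of those kept, TraesMAC1D03G00425090, had a smaller peak-to-trough difference of 1.29 log2, and the first gene left out, TraesMAC3D03G01903140, also had 1.29 log2. The other genes next to that limit were TraesMAC7D03G04423420 at 1.30 log2 and TraesMAC4A03G02126090 at 1.29 log2 among those kept, and TraesMAC4D03G02489300 and TraesMAC6A03G03262590, both at 1.29 log2, among those left out.

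A plant circadian clock is a network of transcription factors that repress and activate each other in turn, so that each part of the day has its own set of transcripts. Dawn-expressed MYB-like factors hand over to pseudo-response regulators through the day, and in Arabidopsis GIGANTEA, a protein that acts in the clock and in the photoperiodic control of flowering, is expressed in the afternoon. The evening complex, which contains EARLY FLOWERING 3, acts at dusk and into the night. Under continuous light the former day and night are called subjective, and a rhythm that goes on in them is taken as driven from within the plant. The title of the series places EARLY FLOWERING 3 in the timing of leaf senescence, the ordered breakdown of a leaf that returns its nutrients to the growing grain.

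The 150 genes carry identifiers of the Mace annotation, of which 0 are listed in the reference table of wheat genes. They are therefore given by identifier, without names or functions, and neither lists of pathway genes nor leaf markers were checked. Each identifier names a chromosome, and thereby 1 of the A, B and D subgenomes that make up bread wheat. Of the 150 genes, 38 were on A (25.3%, exact 95% binomial interval 18.6% to 33.1%), 60 on B (40.0%, interval 32.1% to 48.3%) and 52 on D (34.7%, interval 27.1% to 42.9%). Among all 20577 genes over the same minimum of 50, the shares were 33.6%, 33.2% and 33.3%. The share of A genes and its interval therefore lay below that of the wider set, while the intervals for B and D contained it. The intervals cover counting error only and treat genes as separate, although copies of 1 gene on the 3 subgenomes could be among them. Chromosome 3B held 13 of the genes, 5B held 12, 5D held 11 and 1B held 10. Next to each other in the gene order of the table were 3 pairs: TraesMAC1B03G00199960 with TraesMAC1B03G00199970, TraesMAC3B03G01568060 with TraesMAC3B03G01568070, and TraesMAC4A03G02152560 with TraesMAC4A03G02152600. How reads shared by near-identical copies were counted, and whether strand was used, is not given in the sources used here, so single members of such families are uncertain.

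Sequencing depth was estimated as the total of a library divided by its most frequent low nonzero value, taken as the worth of 1 read. It was 4789060 to 11831500 reads per library. Replicates of a time point correlated with r from 0.881 to 0.971 across genes on the log2 scale, and the lowest value was that of the mature ZT91 pair. At every time point and stage the replicates differed by more than sampling noise, with a chi-square per gene of 2.33 to 25.2. Of the 150 genes, 1 was at 0 in at least 1 library. The 150 genes varied more between replicates than the wider set, with a median replicate SD of 0.37 against 0.27 log2 (mature) and 0.31 against 0.20 log2 (senescent).

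The shared daily pattern was a broad daytime crest and a night-time trough in both cycles and both stages. In mature leaves the median deviation of a gene from its own mean was 1.02 log2 at ZT55, when 149 of the 150 were above their mean, and -1.05 log2 at ZT67, when 1 was. In senescent leaves it was 1.01 log2 at ZT53 and -1.03 log2 at ZT67, when 0 of the 150 were above their mean. Together the 150 genes held a mean of 2.25% of all scaled counts in mature leaves at ZT55 (2.15% and 2.36% in the 2 libraries) and 0.346% at ZT67 (0.355% and 0.338%). In senescent leaves their share ran from 0.353% at ZT67 (0.357% and 0.350%) to 1.89% at ZT79 (1.84% and 1.94%). These courses describe how the genes were chosen and carry no test.

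**Figure D1:**
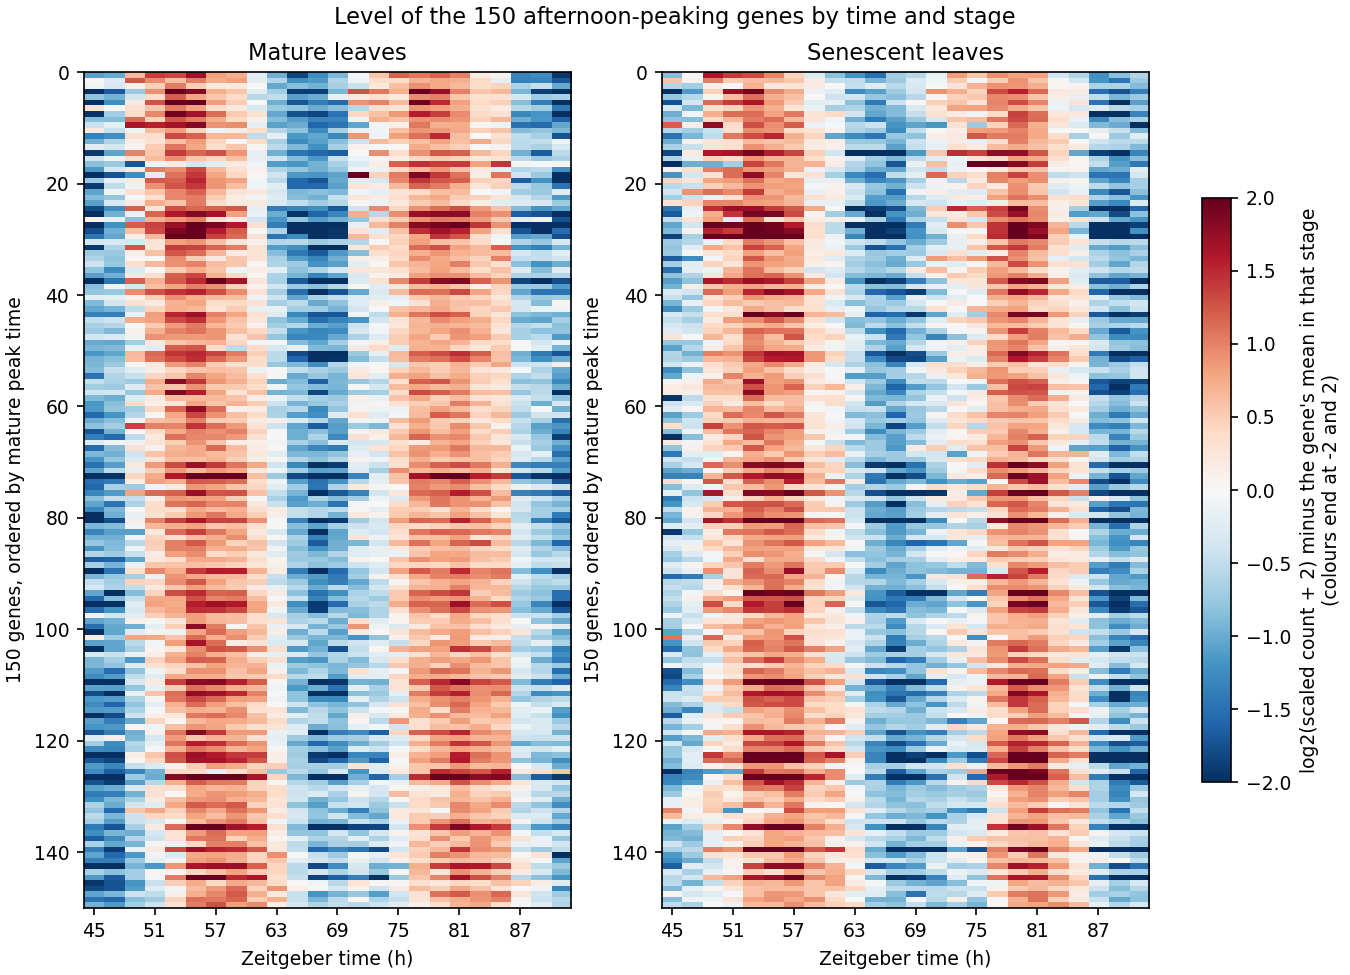
Each row is 1 of the 150 genes, ordered by its fitted peak in mature leaves, and each column is 1 of the 24 time points from ZT45 to ZT91 (h); colour is the mean log2(scaled count + 2) of 2 libraries minus the gene's mean in that stage, cut at -2 and 2. In both stages nearly all rows are red from about ZT53 to ZT57 and again around ZT79 to ZT81, and blue around ZT67 and after ZT87.

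How many genes were above their own mean in each stage near subjective dawn differed between the 2 cycles, and the stages were not tested against each other here. At ZT49, 1 h after subjective dawn, 110 of the genes were above their own mean in senescent leaves and 53 in mature leaves. Near the next dawn it was 28 in senescent against 42 in mature leaves at ZT71, 71 against 44 at ZT73 and 83 against 117 at ZT75, so the order of the stages changed from one time point to the next. After dusk the senescent number was the lower in both cycles. At ZT61, 1 h into the subjective night, 99 were above their mean in senescent leaves and 128 in mature leaves. At ZT85, 1 h into the next one, 104 were above it in senescent leaves and 144 in mature leaves. The highest time point of the first cycle was ZT55 for 81 genes in mature leaves, while in senescent leaves it was ZT53 for 54 genes and ZT57 for 51. In the second cycle it was ZT81 for 67 genes in mature leaves and ZT79 for 85 genes in senescent leaves.

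**Figure D2:**
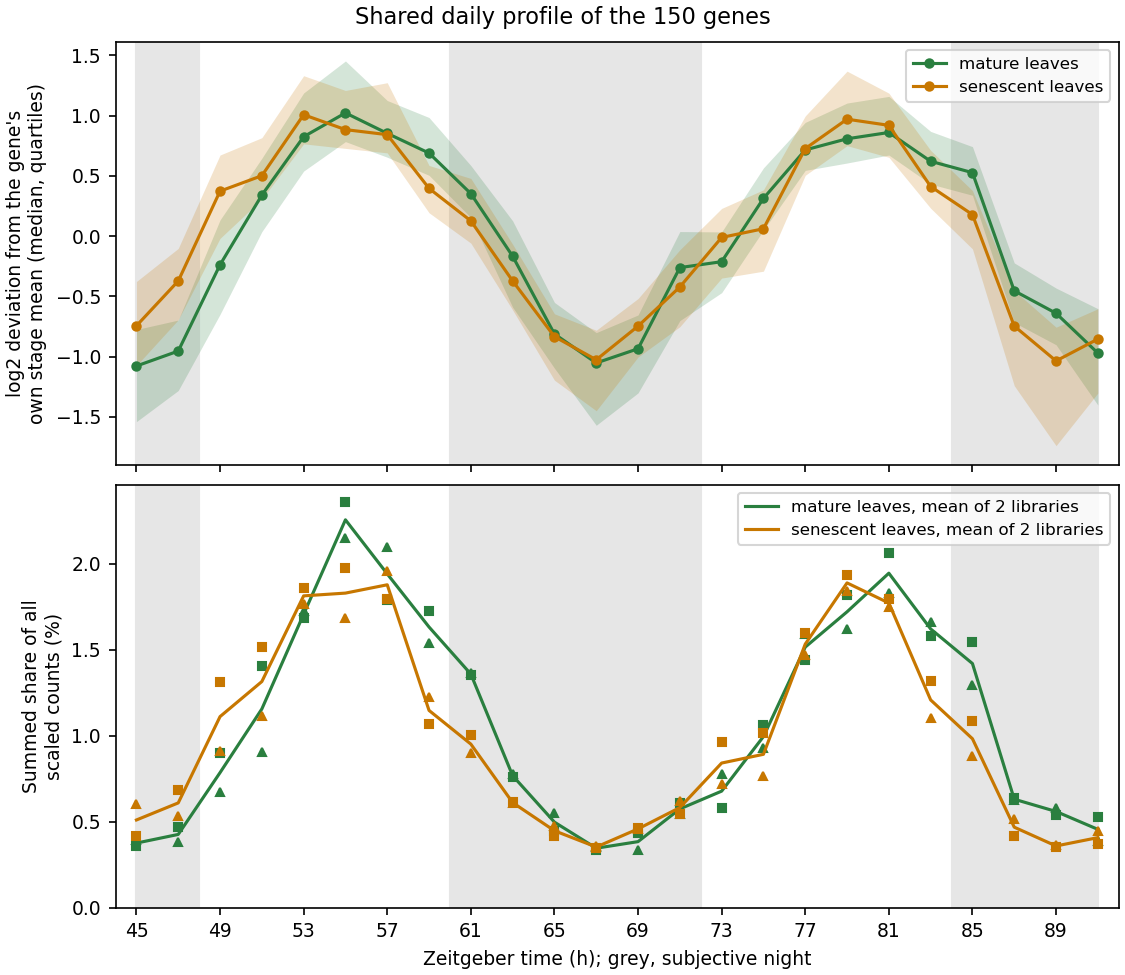
Upper panel: median (line) and quartiles (band) over the 150 genes of the log2 deviation from each gene's own stage mean, against Zeitgeber time (h), with subjective night in grey. Lower panel: summed share (%) of the 150 genes in all scaled counts in each library (triangles, replicate 1; squares, replicate 2) and their mean (line); it peaks at 2.25% in mature leaves at ZT55 and at 1.89% in senescent leaves at ZT79.

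The fitted peak in mature leaves had a median of 7.78 h and ran from 6.03 h for TraesMAC5D03G03190600 to 9.99 h for TraesMAC3A03G01315050, with 89 genes under 8 h and 61 from 8 h on. In senescent leaves the median was 7.04 h and the range 4.40 to 11.2 h, so that 30 genes peaked before 6 h and 1 at 10 h or later. The senescent peak was earlier in 121 genes and later in 29, with a median shift of -0.82 h. It was earlier by more than 2 SE of the fits in 66 genes and later by more than 2 SE in 3. An earlier senescent peak was not particular to these genes. With the same rule applied to other windows of the mature peak, the median shift was also negative, from -0.48 h (early night) to -1.31 h (dawn). Shifts of 2 h or more were barred by the choice of genes, so these values are a description. Fitted separately to each replicate number, the peaks of a gene differed by a median of 0.279 h in mature leaves and of 0.417 h in senescent ones, and by less than 1 h in 143 and 136 genes.

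The earliest gene, TraesMAC5D03G03190600, ranged from 8.06 through a median of 71.5 to 235 scaled counts over the mature libraries and from 13.5 through a median of 45.4 to 184 in the senescent ones. Its fitted peak lay at 6.03 ± 0.246 h (SE) in mature and at 4.4 ± 0.259 h in senescent leaves. The latest gene, TraesMAC3A03G01315050, ranged from 23.8 through a median of 66.5 to 219 in mature and from 16.3 through a median of 44.7 to 97.5 in senescent leaves, with peaks at 9.99 ± 0.314 h and 9.84 ± 0.357 h. The earliest gene thus peaked before subjective noon in senescent leaves, while the latest kept its peak within its SE.

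**Figure D3:**
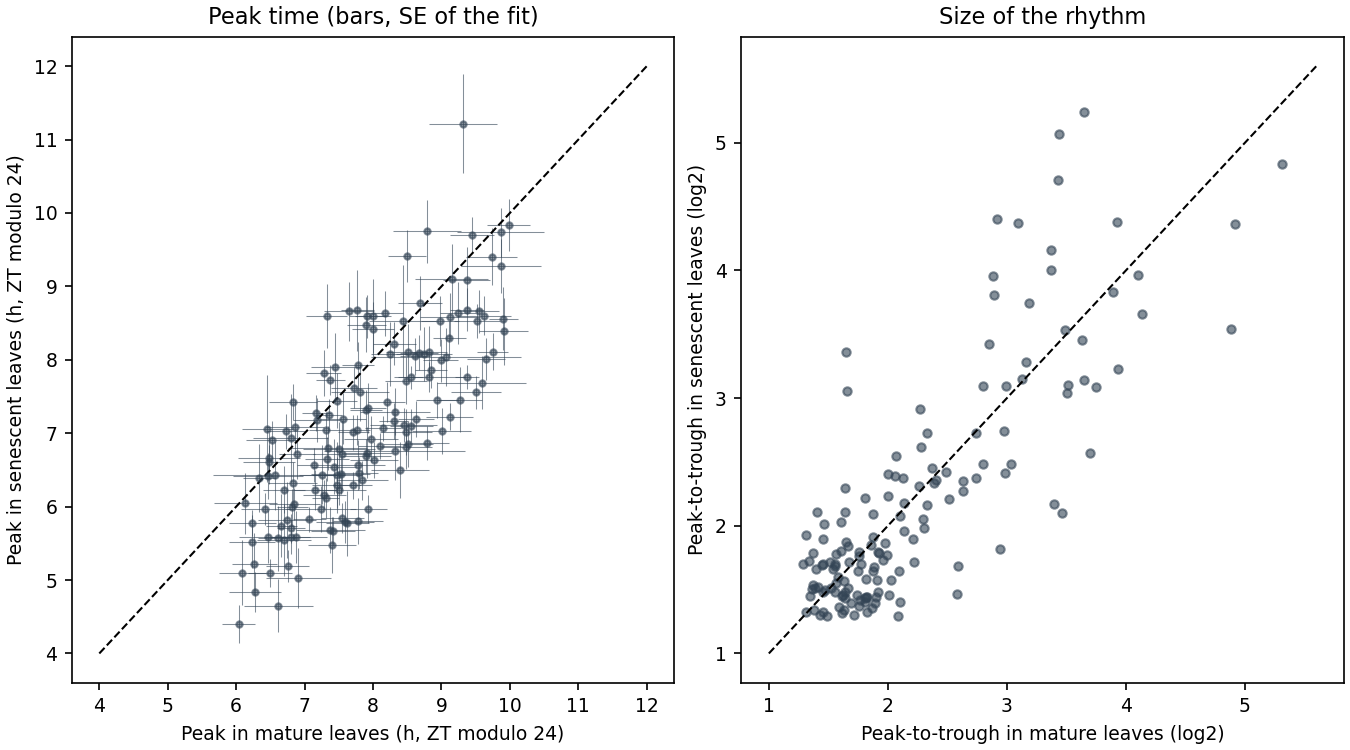
Left: fitted peak (h, ZT modulo 24) in senescent against mature leaves for the 150 genes, with SE bars; the dashed line marks equal values, and 121 genes lie below it. Right: fitted peak-to-trough difference (log2) in senescent against mature leaves; 66 genes lie above the dashed line of equal values.

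The peak-to-trough difference had a median of 1.92 log2 in mature leaves (1.29 to 5.31) and 1.86 log2 in senescent leaves (1.29 to 5.24), and it was larger in senescent leaves in 66 genes. In linear terms the median gene rose 3.78-fold from trough to peak in mature and 3.62-fold in senescent leaves. The R2 of the 24 h wave, taken over what the straight line left unexplained, had a median of 0.777 in mature and 0.797 in senescent leaves. When the period was left free, its median was 24 h in mature leaves and 24.25 h in senescent ones, longer in senescent leaves in 87 genes, shorter in 50 and equal in 13. With the same rule in the neighbouring windows, 36 of 103 morning genes and 22 of 73 dusk genes had a longer senescent period, and the senescent medians were 23.75 h and 23.5 h. These windows use the same libraries and the difference between them was not tested.

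The strongest rhythm belonged to TraesMAC5B03G02964230. Its scaled count ran from 9.11 through a median of 152 to 1013 in the 48 mature libraries, lowest at ZT47 and highest at ZT57, and from 5.66 through a median of 68.9 to 650.5 in the 48 senescent libraries, lowest at ZT69 and highest at ZT57. The fitted peak-to-trough difference was 5.31 ± 0.31 log2 (SE) in the mature and 4.83 ± 0.28 log2 in the senescent stage, that is 39.7-fold and 28.5-fold. The ranges of the stages overlapped, and the senescent mean was the lower at 20 of 24 time points.

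TraesMAC1D03G00519380 on chromosome 1D ranked 2, with 4.91 ± 0.24 log2 in the mature and 4.37 ± 0.22 log2 in the senescent stage. Its values ran from 22.1 through a median of 483 to 1456 scaled counts in mature leaves and from 17.2 through a median of 159 to 747 in senescent leaves. It was already high at ZT49 in both stages, and its fitted peaks of 6.8 ± 0.203 h and 5.71 ± 0.20 h were earlier than those of TraesMAC5B03G02964230. TraesMAC1A03G00128200 on 1A and TraesMAC1B03G00330480 on 1B ranked 6 and 8, at 4.14 ± 0.25 and 4.88 ± 0.23 log2 in mature leaves and 3.66 ± 0.21 and 3.54 ± 0.18 log2 in senescent leaves. Whether genes on 1A, 1B and 1D are copies of each other is not given in the sources used here.

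TraesMAC4D03G02431570 ranked 3 and was also abundant, with a mean of 651 ± 566 FPKM in mature and 673 ± 577 FPKM in senescent leaves (SD over 48 libraries each, a spread that includes the rhythm; FPKM are fragments scaled by transcript length and library size). Its scaled count ran from 289.7 through a median of 1376 to 8039.8 in mature and from 246 through a median of 1831 to 7827 in senescent leaves, so the stages covered nearly the same range. Its mature peak lay at 9.37 ± 0.173 h and its senescent peak at 7.77 ± 0.167 h. TraesMAC5A03G02731560 ranked 4, with 3.92 ± 0.17 and 4.38 ± 0.17 log2, and its counts ran from 32 through a median of 261 to 940.4 and from 14.3 through a median of 145 to 708. TraesMAC7B03G04166080 ranked 5, with 3.89 ± 0.21 and 3.83 ± 0.24 log2, and its counts ran from 30.8 through a median of 249 to 823 in mature and from 6.88 through a median of 58.6 to 372 in senescent leaves. Both were lower in senescent leaves at 24 of 24 time points.

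TraesMAC3D03G01818180, ranked 7 by rhythm, and TraesMAC3B03G01568060 had the highest mean FPKM of the 150. TraesMAC3B03G01568060 averaged 1566 ± 1157 FPKM in mature and 314 ± 327 FPKM in senescent leaves (SD, n = 48 libraries each). TraesMAC3D03G01818180 averaged 1237 ± 878 and 328 ± 338 FPKM. Both were lower in senescent leaves at every time point, and both had a larger fitted peak-to-trough difference there, 4.37 ± 0.31 against 3.10 ± 0.23 log2 for TraesMAC3B03G01568060 and 5.24 ± 0.35 against 3.65 ± 0.20 log2 for TraesMAC3D03G01818180. The mean FPKM over all libraries had a median of 14.4 over the 150 genes and 11.3 over the 20577 genes of the wider set.

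**Figure D4:**
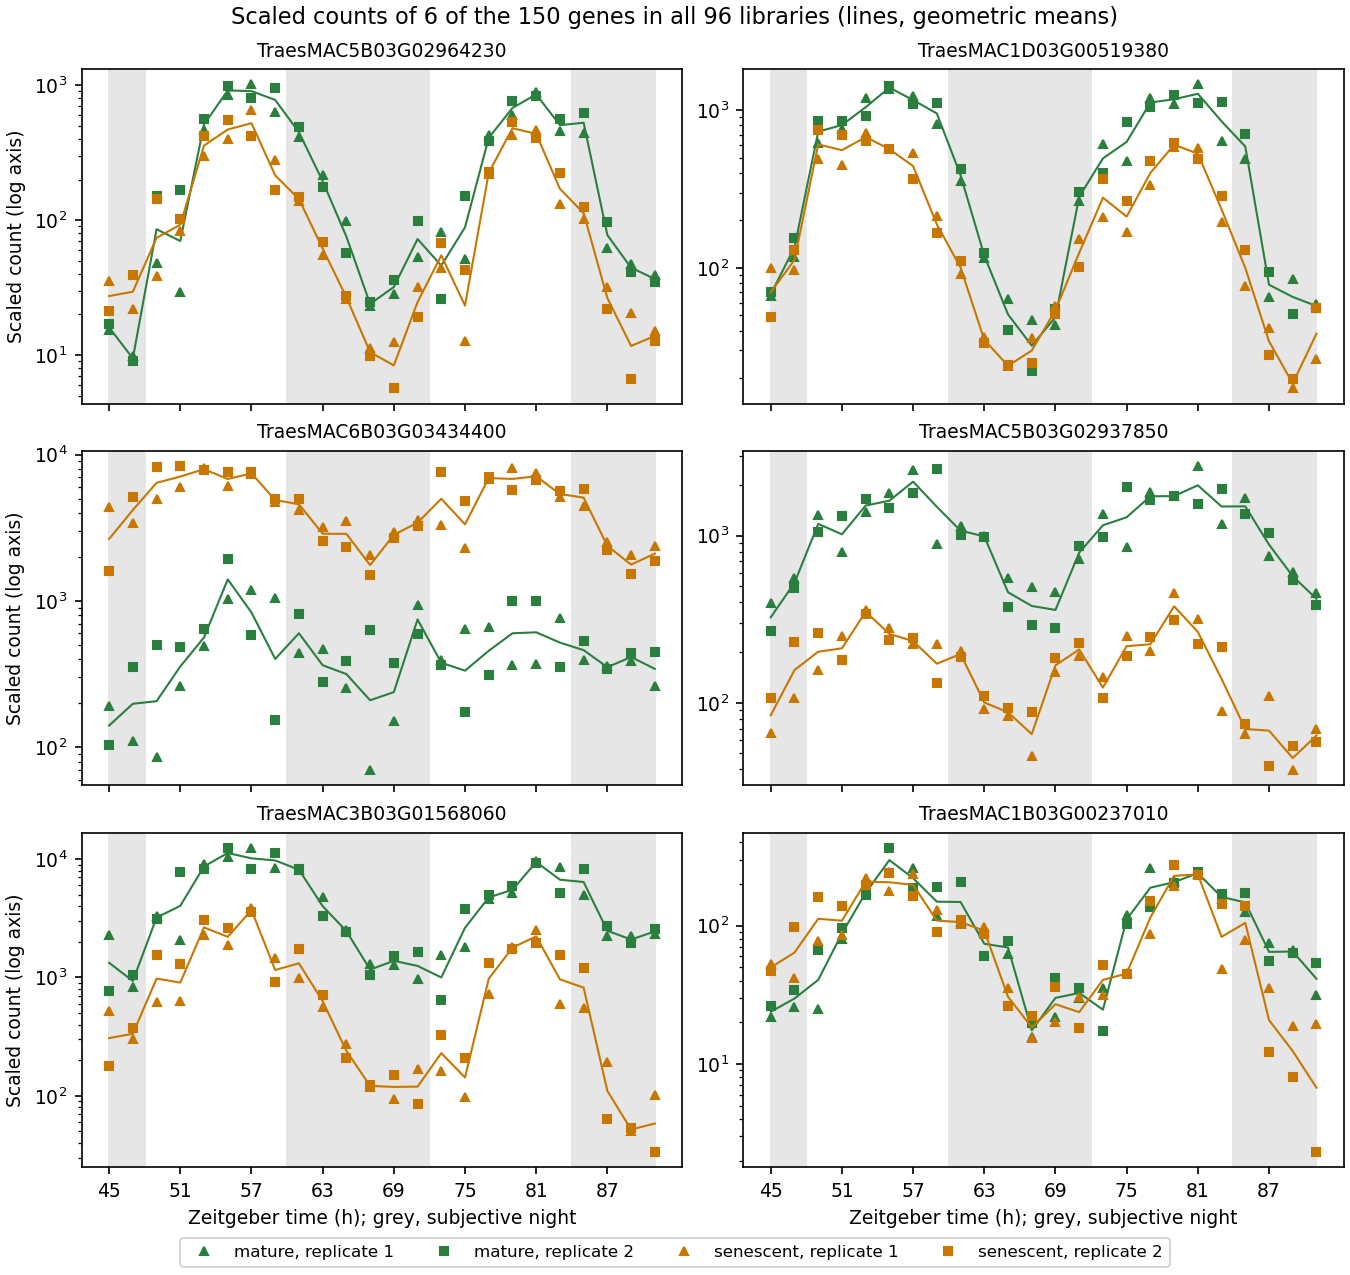
Scaled count (log axis) against Zeitgeber time (h) for 6 of the 150 genes in all 96 libraries; green, mature; orange, senescent; triangles and squares, replicates 1 and 2; lines, geometric means of the 2; grey, subjective night. TraesMAC6B03G03434400 lies higher in senescent leaves and TraesMAC5B03G02937850 and TraesMAC3B03G01568060 lower at 24 of 24 time points, while the senescent values of TraesMAC1B03G00237010 begin above the mature ones at ZT45 and end below them at ZT91.

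Most of the 150 genes were lower in senescent leaves. The level averaged over the 48 h, which played no part in the choice beyond the minimum of 50, was tested with limma in a fit to all 96 libraries. It was lower in senescent leaves for 93 genes and higher for 28 at a Benjamini-Hochberg adjusted p under 0.05. Of all 42428 genes tested, 34.6% were called lower and 35.2% higher, and of the 20577 genes over the minimum, 37% and 37.9%. In either direction 121 of the 150 genes were called, against 69.8% of all genes. The 150 genes had a median difference of -0.35 log2, against 0.0050 log2 over all genes tested. A fall of at least 1 log2 was called for 30 of the 150 genes (20.0%) and for 5.18% of all genes, and a rise of that size for 5 (3.33%) and for 4.74% of all genes. In leaf RNA, fewer cells that express a gene and less of its RNA per cell cannot be told apart. When every library was scaled to the same total, the median of all genes moved to 0.24 log2 and that of the 150 to -0.10 log2, and 71 of the 150 were lower and 50 higher, against 18% lower and 60.2% higher of all genes. The median of the 150 lay below that of all genes by about the same distance under both scalings.

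The 50 strongest rhythms had a median level difference of -0.71 log2, with 38 called lower and 5 higher. The next 50 had -0.41 log2, with 29 lower and 10 higher, and the last 50 had -0.14 log2, with 26 lower and 13 higher. Genes with a mature peak before 8 h and those from 8 h on had medians of -0.37 and -0.33 log2. By subgenome the medians were -0.41 log2 on A, -0.33 log2 on B and -0.37 log2 on D. The same rule gave medians of -0.15 log2 for the morning window (50 of 103 genes lower, 23 higher) and -0.16 log2 for the dusk window (36 of 73 lower, 20 higher). The difference between windows was not tested.

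Among genes lower in senescent leaves, TraesMAC5B03G02937850 had the smallest p. Its scaled count ran from 267 through a median of 1021 to 2599 in mature and from 39.6 through a median of 182 to 455 in senescent leaves. The ranges overlapped, but at each of the 24 time points the senescent mean was the lower. The difference was -2.68 ± 0.091 log2 (SE, limma adjusted p 1.12e-47). TraesMAC5D03G03230730 ran from 126 through a median of 625 to 1863 in mature and from 9.3 through a median of 75 to 464 in senescent leaves and differed by -3.07 ± 0.11 log2 (SE, limma adjusted p 1.66e-44). TraesMAC3B03G01568060, the gene with the highest FPKM, ran from 642 through a median of 3317 to 12472 and from 33.6 through a median of 582 to 3877 and differed by -2.83 ± 0.13 log2 (SE, limma adjusted p 2.23e-37). These 3 genes were lower in senescent leaves at 24 of 24 time points.

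Of the 28 genes that were higher, TraesMAC6B03G03434400 stood apart in size. Its scaled count ran from 69.9 through a median of 396 to 1923 in mature and from 1493 through a median of 4795 to 8329 in senescent leaves, and it averaged 40.7 ± 27.9 and 381 ± 174 FPKM (SD, n = 48 each). The difference was 3.37 ± 0.13 log2 (SE, limma adjusted p 2.39e-42), higher at 24 of 24 time points, although the highest mature library exceeded the lowest senescent one. Its rhythm in mature leaves was loosely fixed, with a peak at 8.32 ± 1.03 h. TraesMAC5B03G02887620 ran from 61.5 through a median of 232 to 626 in mature and from 281 through a median of 632 to 1162 in senescent leaves and differed by 1.40 ± 0.064 log2 (SE, limma adjusted p 1.04e-37). TraesMAC1D03G00425090 ran from 44.2 through a median of 120.2 to 223 and from 94.2 through a median of 245 to 497 and differed by 1.01 ± 0.062 log2 (SE, limma adjusted p 1.85e-28). Both were higher in senescent leaves at 24 of 24 time points.

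**Figure D5:**
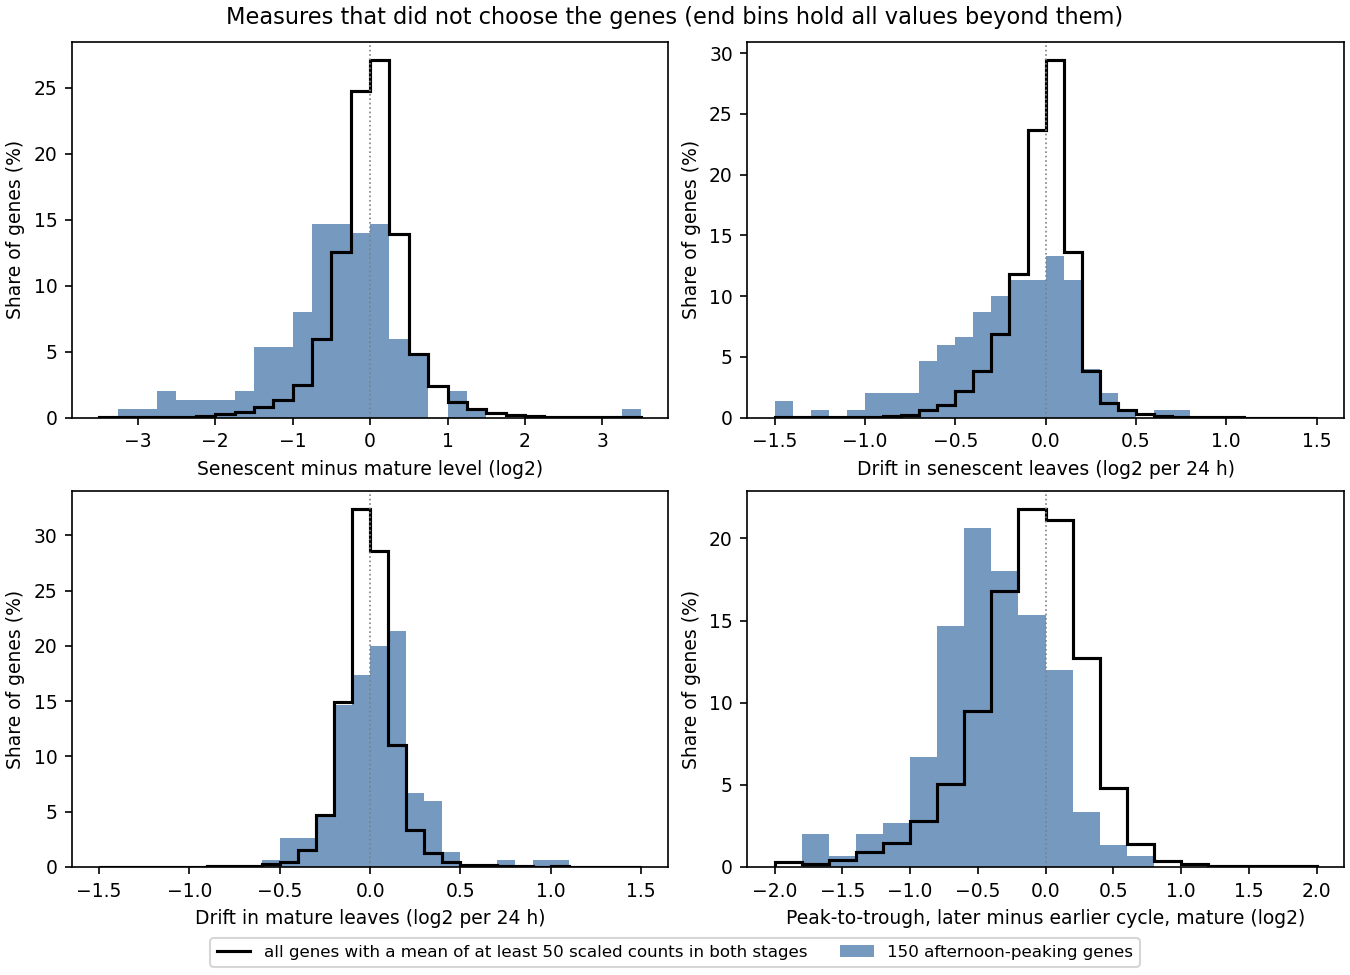
Share of genes (%) by the value of 4 measures that did not choose the genes: senescent minus mature level (log2), drift in senescent and in mature leaves (log2 per 24 h), and change of the peak-to-trough difference in mature leaves (log2). The last can be larger in genes with larger rhythms, for which the 150 were chosen. Bars are the 150 afternoon-peaking genes and the black outline the 20577 genes over the same minimum; the bars lie to the left for level (median -0.35), senescent drift (median -0.15) and mature peak-to-trough change (median -0.40), and about 0 for mature drift (median 0.03).

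During the 48 h of sampling many of the 150 genes drifted downward in senescent leaves. Drift is the linear term of the fit, in log2 per 24 h, and had no part in the choice of genes. In senescent leaves 56 genes fell and 9 rose (limma, adjusted p under 0.05), where 12.5% of all 41715 genes tested fell and 7.3% rose, and 18.6% and 9.19% of those over the minimum. The median drift of the 150 was -0.15 log2 per 24 h, against 0.0040 over all genes. A fall was not particular to this window. By the same rule, 40 of 73 dusk genes (median -0.23) and 79 of 110 early night genes (-0.34) fell. In the other windows 38 of 150 late night genes (-0.12), 11 of 150 dawn genes (0.02) and 23 of 103 morning genes (0.11) fell. The difference between windows was not tested. With libraries scaled to the same total, 47 fell and 23 rose, while 7.86% of all genes fell and 20.9% rose. With both replicates, 65 genes were called in either direction, against 19.8% of all genes. Without replicate 1 it was 35 and without replicate 2 it was 30. Those 2 counts are given without the share of all genes at their own setting. Of the 50 strongest rhythms 28 fell and 1 rose, of the next 50 it was 13 and 5, and of the last 50 it was 15 and 3.

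TraesMAC3B03G01568060 had the smallest p, with a senescent drift of -1.43 ± 0.19 log2 per 24 h (SE, limma adjusted p 3.07e-07). Its lowest senescent library, at ZT91, held 33.6 scaled counts, and its mature drift was -0.31 ± 0.14 log2 per 24 h (SE, limma adjusted p 0.242). TraesMAC4B03G02248850 drifted by -0.87 ± 0.13 log2 per 24 h (SE, limma adjusted p 1.58e-06) in senescent leaves and by -0.48 ± 0.12 log2 per 24 h (SE, limma adjusted p 0.015) in mature leaves. Its senescent counts ran from 138 through a median of 1231 to 4899, lowest at ZT91. The upward genes with the smallest p moved less. TraesMAC7D03G04474140 rose by 0.28 ± 0.073 log2 per 24 h (SE, limma adjusted p 0.00332) and TraesMAC5A03G02762410 by 0.22 ± 0.057 log2 per 24 h (SE, limma adjusted p 0.00367) in senescent leaves. Over the whole rhythm, their senescent counts ran from 159 through a median of 371 to 789 and from 133 through a median of 394 to 664. The call of TraesMAC7D03G04474140 was lost without replicate 2 and with a 22 h period, and that of TraesMAC5A03G02762410 was lost without either replicate.

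In mature leaves 8 genes rose and 5 fell, where 1.58% of all 42218 genes tested rose and 2.75% fell, and 1.84% and 3.52% of those over the minimum. With libraries scaled to the same total it was 11 and 4, against 2.5% and 1.70% of all genes. The median drift of the 150 was 0.03 log2 per 24 h. In either direction 13 were called, against 4.33% of all genes. Without ZT45 and ZT91, 4 rose and 6 fell. None of the 13 passed without replicate 1 or without replicate 2, when 0 genes were called. TraesMAC6B03G03546290 rose by 0.37 ± 0.078 log2 per 24 h (SE, limma adjusted p 0.00251), with counts from 38.1 through a median of 100.5 to 178 and the lowest library at ZT45. TraesMAC3B03G01542810 rose by 1.05 ± 0.23 log2 per 24 h (SE, limma adjusted p 0.00306), with counts from 21.1 through a median of 134 to 590.1. Its highest mature library was replicate 2 at ZT83, in the second cycle, where replicate 1 held 95.3 scaled counts. Its mature replicates also lay far apart at ZT51, with 437 and 36.8 scaled counts. TraesMAC2A03G00807180 drifted by -0.60 ± 0.15 log2 per 24 h (SE, limma adjusted p 0.0107) and TraesMAC2D03G01296630 by -0.48 ± 0.12 log2 per 24 h (SE, limma adjusted p 0.0107), both with their highest mature library at ZT51, in the first cycle.

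A test of the difference in drift between the stages called 16 of the 150 genes in limma (adjusted p under 0.05), against 2.42% of all 42428 genes tested and 3.81% of those over the minimum. It was more downward in senescent leaves for 15 of them, as for 1.98% of all genes, and more upward for 1, as for 0.441% of all genes. That 1 gene was TraesMAC7D03G04474140, named above for its senescent drift. The median difference of the 150 was -0.25 log2 per 24 h. Leaving out replicate 1 or replicate 2 gave 0 calls.

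TraesMAC1B03G00237010 had the smallest p. Its scaled count at ZT89 was 66.6 and 63.3 in the mature and 18.9 and 8.10 in the senescent libraries, and at ZT91 it was 31.6 and 53.8 against 19.6 and 2.32. At ZT45 it had been 21.7 and 26.1 in mature and 52.8 and 46.8 in senescent leaves, so the order of the stages turned over. The difference in drift was -1.02 ± 0.21 log2 per 24 h (SE, limma adjusted p 0.00314). TraesMAC4B03G02343750 was at 467 and 262 scaled counts in mature and 227 and 236 in senescent leaves at ZT45, and at 400 and 388 against 95.5 and 106 at ZT89. Its drift differed by -0.58 ± 0.12 log2 per 24 h (SE, limma adjusted p 0.00358). ZT45 and ZT89 lie at different hours of the cycle, so these counts mix rhythm with drift. Compared 24 h apart, its senescent counts were 227 and 236 at ZT45 and 140 and 161 at ZT69. They were 125 and 131 at ZT67 and 146 and 147 at ZT91. The mature counts were 467 and 262 at ZT45 and 334 and 341 at ZT69, and 307 and 325 at ZT67 and 428 and 391 at ZT91.

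The rhythm became shallower from the first to the second cycle in mature leaves for 8 of the 150 genes and deeper for 0 (limma, adjusted p under 0.05). The peak-to-trough difference from ZT45 to ZT67 was compared with that from ZT69 to ZT91 along each gene's own phase. Of all 42218 genes, 2.47% became shallower and 0.336% deeper, 2.8% in all, and of the 20577 genes over the minimum of 50, 3.79% and 0.452%. When only genes with a mean of at least 50 were tested, 9 of the 150 and 6.14% of all genes tested were called, so the called share of the 150 was close to that background. The median of the first cycle over the 150 was 2.23 log2 and that of the second 1.85 log2, and the median change was -0.40 log2, against -0.09 log2 over all genes. A larger rhythm has room for a larger change, and the 150 were chosen for large rhythms. Their median mature peak-to-trough difference was 1.92 log2, against 0.386 log2 in the 20577 genes, whose median change was -0.083 log2. The medians of change therefore do not show a fall particular to the 150. The change was negative in 124 of the 150 genes. Leaving out replicate 1 or replicate 2 gave 0 calls (0.0664% and 0.0118% of all genes), with medians of -0.48 and -0.29 log2. Without ZT45 and ZT91, 4 genes passed (2.49% of all genes). The same rule gave medians of -0.17 log2 for the morning, -0.55 for the dusk, 0.20 for the early night, -0.23 for the late night and -0.50 for the dawn window.

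TraesMAC1D03G00549840 had the smallest p in mature leaves. Its peak-to-trough difference was 1.96 log2 in the first cycle and 0.66 log2 in the second, and the change along its phase was -1.66 ± 0.31 log2 (SE, limma adjusted p 0.00384). Its lowest mature library was at ZT45, with 9.23 scaled counts, against a median of 69.7. TraesMAC1A03G00177700 went from 2.77 to 1.51 log2, a change of -1.25 ± 0.30 log2 (SE, limma adjusted p 0.0167). Its lowest mature library was also at ZT45, with 14.6 scaled counts, and its call was lost without ZT45 and ZT91.

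In senescent leaves 2 genes became deeper and 0 shallower, against 0.741% and 0.206% of all 41715 genes tested, 0.947% in all, and 1.01% and 0.287% of those over the minimum. The median change of the 150 was -0.06 log2, and it was positive in 68 genes. Without ZT45 and ZT91 17 became deeper and 2 shallower, 19 in all, against 2.67% of all genes, and the median change was 0.20 log2. With a 26 h period 5 became deeper and 8 shallower, counts given without the share of all genes and so not set against a background. Leaving out either replicate gave 0 calls. TraesMAC7A03G03835640 went from 1.05 to 1.88 log2, a change of 0.83 ± 0.20 log2 (SE, limma adjusted p 0.0216), and TraesMAC2B03G00936560 from 1.91 to 3.03 log2, a change of 1.09 ± 0.28 log2 (SE, limma adjusted p 0.0394). Whether the change between cycles differed between the stages was not tested.

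In most of the 150 genes, which were chosen for a large 24 h wave, a 12 h wave fitted beside it was much smaller. The median ratio of the 12 h to the 24 h amplitude was 0.128 in mature and 0.127 in senescent leaves. A 12 h term added to the fit, which describes a flattened, sharpened or lopsided wave, passed in limma (adjusted p under 0.05) for 5 genes in mature leaves, against 0.334% of all genes and 0.559% of those over the minimum, and for 4 in senescent leaves, against 1.23% and 2.05%. Its median peak-to-trough difference was 0.27 log2 in the mature and 0.25 log2 in the senescent stage, against 0.186 and 0.167 log2 over all genes. The calls depended on the replicates, in the 150 as among all genes. Without replicate 1, 2 genes passed in mature and 0 in senescent leaves, against 0.0783% and 0.0048% of all genes. Without replicate 2 it was 0 in each stage, as for 0% of all genes. The 12 h term differed between stages for 0 of the 150 genes by limma (adjusted p under 0.05), as for 0% of all genes. No other tool was run.

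In mature leaves the 12 h term of TraesMAC1D03G00519380 measured 1.13 log2 from peak to trough (limma adjusted p 0.000329) and that of TraesMAC3D03G01818180 0.78 log2 (limma adjusted p 0.0261). Both calls were lost without replicate 2 and with a 22 h or a 26 h period. That of TraesMAC3D03G01818180 was also lost without replicate 1 and without the filter on low values. In senescent leaves it measured 1.22 log2 for TraesMAC2A03G00747260 (limma adjusted p 0.00573), whose senescent counts ran from 17.9 through a median of 80.7 to 295 with the lowest at ZT75 and the highest at ZT83. For TraesMAC3D03G01843460 it measured 0.41 log2 (limma adjusted p 0.0112), with senescent counts from 82.3 through a median of 149 to 335. The senescent calls of these 2 genes were lost when either replicate was left out and with a 22 h or a 26 h period. With the 12 h term included, the fitted rise from trough to peak took a median of 12.35 h in mature leaves and 13.05 h in senescent ones, and the time above the midpoint was 13.2 h and 12.0 h. The median mature wave of these genes thus stayed above its midpoint for longer than the median senescent one, a difference that was not tested.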

How the data were processed

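RNA-seq libraries were analysed from the deposited values. Per the submitters' processing notes, bcl2fastq 2.17, STAR, Cufflinks and Cuffnorm were used; settings and build are not given in the sources used here. The deposited signal values are gene counts that the authors multiplied by a factor for each library: per library, 99.9% or more of the nonzero values were whole multiples (tolerance 0.05) of a step that ranged from 0.516 to 1.43. The deposited FPKM, by the authors, carried the same scaling. All columns were matched to samples by name.

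Genes were tested with limma 3.58.1 (R 4.3.3; variance trend) on log2(scaled count + 2), which understates changes of low genes, at a mean of at least 10, with Benjamini-Hochberg adjustment over all genes. A count test had been planned, but the values are scaled and not all whole. The fits were tested on simulated data. The period was the best of 18 to 32 h in steps of 0.25 h. P-values measure the spread of libraries around the fitted curves. That spread holds differences between pools of 2 leaves and any misfit of the curve to the time points. The genes, windows and tests were chosen with earlier results of these data known. Named genes were the first 8 by rhythm, the 3 on each side of the limit, the earliest and latest peak, the 2 with the highest FPKM, and those with the smallest p: 3 in each direction for the level, 2 in each direction for drift and cycle, and 2 for the 12 h term and the drift difference. Alternatives covered pseudocount, filter, scaling, unit, period, time points and replicates. Equal replicate numbers in the 2 stages did not pair libraries, since their deviations correlated by more than 0.1 at 3 of 24 time points.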

Additional observations from a re-analysis of the deposited data

Results flagged for a closer look

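Drift differed between the stages, by a test of the difference itself, for 16 of the 150 genes, 15 of them more downward in senescent leaves. For TraesMAC1B03G00237010 the difference was -1.02 ± 0.21 log2 per 24 h (SE, limma adjusted p 0.00314), and its lowest senescent library, replicate 2 at ZT91, held 2.32 scaled counts. For TraesMAC4B03G02343750 the difference was -0.58 ± 0.12 log2 per 24 h (SE, limma adjusted p 0.00358). Without replicate 1 the 2 values were -1.02 and -0.64 log2 per 24 h, and without replicate 2 they were -1.03 and -0.53, all no longer past the threshold.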

How the results depend on the processing

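The number of the 150 genes called for level was 105 without either replicate and 114 to 121 under all other alternatives. Of the single named genes, 0 changed direction. The balance of calls turned for the senescent cycle with a 26 h period, from 2 deeper and 0 shallower to 5 and 8. It also turned for mature drift without ZT45 and ZT91, from 8 upward and 5 downward to 4 and 6. These counts are given without the shares of all genes, so whether the turn is particular to the 150 cannot be read from them. Counts of called genes are given in the order level, senescent drift, mature drift, drift difference, mature cycle, senescent cycle, and 12 h term in mature, in senescent and between stages. With the replicate block they were 121, 65, 12, 18, 8, 2, 5, 5 and 0. Libraries of the 2 stages with the same time and number had deviations that correlated by -0.20 to 0.13, so the numbers do not pair them. Leaving out 1 replicate, which leaves 1 library per time point and stage, gave 30 to 35 calls for senescent drift. It gave 0 for mature drift, drift difference and both cycle tests (0.0118% to 0.0664% of all genes for the mature cycle). The mature 12 h term then had 0 to 2 calls (0% to 0.0783% of all genes) and the senescent one 0 (0% to 0.0048%). With a 22 h period the mature cycle had 4 calls (0.478% of all genes, against 2.8% in the main fit). The mature 12 h term had 0 (0% of all genes, against 0.334%). At that period the rule left 89 genes, 66 of them among the 150. With a 26 h period the senescent cycle had 13 calls and the drift difference 7. The 12 h term then had 0 in both stages (0.0876% of all genes in mature and 0.0024% in senescent leaves). Without a filter on low values, which adds genes to the adjustment, the mature cycle had 4 calls (0.719% of all genes) and the senescent cycle 0. The 12 h term then had 1 call in mature leaves (0.121% of all genes) and 2 in senescent leaves (0.35%). The senescent cycle had 5 calls at a mean of at least 50, 1 with FPKM, 1 without the linear term and 1 with equal totals. Without ZT45 and ZT91 the senescent cycle had 19 calls, and the mature cycle had 4 (2.49% of all genes). With a pseudocount of 8 the senescent 12 h term had 2 calls (1.22% of all genes, against 1.23% in the main fit). Counts without a share beside them are not set against a background. The cause of these moves was not tested unless named. Of the single named genes, 47 of 268 alternative values lost their call, and 30 of those are from leaving out a replicate. The planned count test on recovered reads was not run. Estimated depth per library, 4789060 to 11831500 reads, bounds the precision of low values, and single members of shared-read families are uncertain.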
